A study of Mus musculus with 4 samples.

Results

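The SoxB and SoxC genes are 8 members of the Sox family, which encode transcription factors that bind DNA through a domain called the HMG box. They were taken from the expression table by their symbols, as 8 of 24771 listed features. The subgroups were SoxB1 (Sox1, Sox2 and Sox3), SoxB2 (Sox14 and Sox21) and SoxC (Sox4, Sox11 and Sox12). Of the 8 genes, 7 passed the filter on low values and were tested, and Sox14 did not.

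RNA-seq was performed on 2 samples of PSC-derived SG placodes, harvested on day 10, and on 2 samples of submandibular glands (SMGs) of E12.5 mouse embryos. The placodes, which the labels call mES-derived induced embryonic salivary glands, were free-floating aggregates of a single mouse ESC line, started from 3000 cells per well in medium with 2% Matrigel. They received 2 ng/ml BMP4 on day 3, 25 ng/ml bFGF together with 1 μM RA on day 4, and 200 ng/ml FGF10 from day 6. The E12.5 SMGs were embryonic tissue, for which the labels give neither a strain nor a dissection protocol and repeat the growth protocol of the placodes. No sample is labelled as treated. The sources do not say whether the samples of a group came from separate cultures or litters. The p-values set group differences against the spread between these samples, pooled over genes, which may not reflect that between cultures or litters. In bulk RNA, fewer cells of a type and less RNA per cell cannot be told apart.

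SoxB1 proteins keep neural progenitor cells in a dividing, undifferentiated state, and Sox2 is also a core factor of pluripotent cells and a marker of progenitors in oral and salivary epithelium. Sox21 and Sox14, the SoxB2 proteins, share the SoxB1 binding sites and mostly repress transcription there. SoxC proteins act later in the neural lineage, where Sox4 and Sox11 turn on genes of young neurons, and they are also widely present in embryonic mesenchyme and epithelium.

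The coding sequence at the start of the HMG box shows how close the 8 genes are, which bears on whether their reads can be told apart. The 60 bases below were read from GENCODE M21 transcripts (GRCm38). Capitals mark bases that differ from Sox2 at the same position.
Sox2: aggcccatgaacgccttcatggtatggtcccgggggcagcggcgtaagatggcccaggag
Sox1: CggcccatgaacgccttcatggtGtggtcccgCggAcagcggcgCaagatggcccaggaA
Sox3: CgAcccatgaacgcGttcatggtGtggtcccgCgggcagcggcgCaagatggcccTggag
Sox14: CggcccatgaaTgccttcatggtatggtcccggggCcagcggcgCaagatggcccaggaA
Sox21: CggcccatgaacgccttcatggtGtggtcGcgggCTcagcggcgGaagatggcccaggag
Sox4: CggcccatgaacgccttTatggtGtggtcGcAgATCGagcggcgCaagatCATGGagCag
Sox11: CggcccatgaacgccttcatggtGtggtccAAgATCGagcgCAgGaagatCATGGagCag
Sox12: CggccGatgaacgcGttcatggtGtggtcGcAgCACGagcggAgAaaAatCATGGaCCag
Within these 60 bases, the other SoxB genes differed from Sox2 at 5 to 7 positions and the SoxC genes at 16 to 20. The Sox2 stretch lies at chr3:34650548-34650607 on the plus strand and the Sox4 stretch at chr13:28952782-28952841 on the minus strand. The longest identical run in the 237 bases of the HMG box was 48 bases, between Sox4 and Sox11, and no pair of the 8 genes shared a stretch of 50 bases anywhere in their transcripts. Base identity over the HMG box was 87.8 to 89.5% within SoxB1, 84.4 to 89.5% within SoxC and 66.7 to 73.0% between a SoxB and a SoxC gene.

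All 7 tested genes were higher in the placodes at an adjusted p below 0.05 with limma, which pools information on the spread over all genes. Of all 13193 tested features, 76.2% passed this threshold in either direction and 35.7% were higher in the placodes. Differences of at least 2-fold were found for 6 of the 7 genes, all but Sox12, and 14.1% of all tested features were higher by as much. Both placode values lay above both SMG values in all 7, as in 41.6% of the tested features. The median log2 fold change of the 7 genes was 2.41, against -0.05 over all tested features. Sox1 and Sox3 were below 1 FPKM in both SMG samples and passed the filter only through the placodes. Their direction was thus fixed by the filter, which bears on these counts and on the median, the value of Sox1. Sox2, Sox21, Sox4, Sox11 and Sox12 were above 1 FPKM in every sample. Fold changes here are differences of log2(FPKM + 1), where FPKM is the number of mapped fragments scaled to transcript length and to the sample's total. They are smaller than the change in FPKM for genes with low values.

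**Figure D1:**
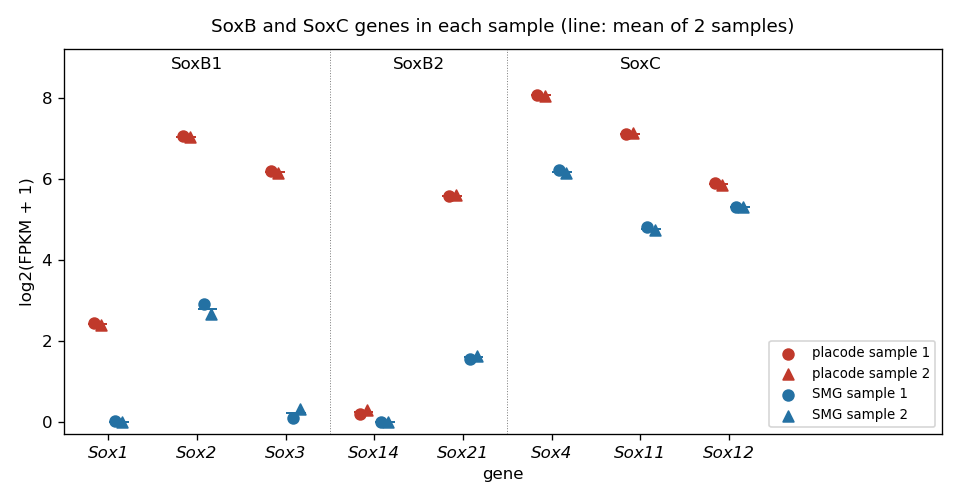
Level of each SoxB and SoxC gene in each of the 4 samples, as log2(FPKM + 1), with the mean of the 2 samples of a group as a line. Both placode values lie above both SMG values for all 8 genes, and the gap is smallest for Sox14, near 0 in every sample, and for Sox12.

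Sox2 was the most abundant SoxB gene in both groups. It stood at 131 FPKM in placode sample 1 and 130.0 FPKM in placode sample 2, against 6.53 FPKM in SMG sample 1 and 5.33 FPKM in SMG sample 2. The groups did not overlap, and the lowest placode sample was at 19.9 times the highest SMG sample. On the log2 scale the groups lay 4.25 apart (SE 0.09, adjusted p = 3.30e-07). In the placodes, 1.45 and 1.47% of all listed features had a higher FPKM than Sox2, against 34.4 and 36.7% in the SMGs.

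Sox3, an X-linked SoxB1 gene, had the largest difference of the 7 genes on the log2(FPKM + 1) scale, while at a pseudocount of 0.001 that of Sox1 was larger (10.2 against 9.02). It reached 72.5 and 69.1 FPKM in the placodes but 0.0761 and 0.242 FPKM in the SMGs. The lowest placode value was 286 times the highest SMG value, and both SMG values were below an FPKM of 1. On the log2 scale the difference was 5.96 (SE 0.10, adjusted p = 1.94e-07), and 0.129% of the tested features had a log2 fold change as high or higher. Sox1, the third SoxB1 gene and a marker of neural ectoderm, was the least abundant of the subgroup. It reached 4.46 and 4.21 FPKM in the placodes, with 0.0130 and 0 FPKM in the SMGs, so the groups did not overlap. No ratio to the SMGs is given for Sox1 because it was listed at 0 in one of them, and its log2 fold change of 2.41 (SE 0.11, adjusted p = 5.35e-06) depends on the pseudocount.

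The SoxB1 genes differed between the groups by unequal amounts. Sox3 made up 34.8 and 34.0% of the summed SoxB1 FPKM in the placodes but 1.15 and 4.34% in the SMGs, where Sox2 alone held 98.7 and 95.7%. The FPKM of Sox2 was 1.81 and 1.88 times that of Sox3 in the placodes, against 85.7 and 22.0 times in the SMGs. The ratio within a sample does not change with the scaling of that sample.

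Of the SoxB2 genes, Sox21, which counteracts SoxB1 activity as progenitors differentiate, reached 46.3 and 47.4 FPKM in the placodes but 1.94 and 2.10 FPKM in the SMGs. The lowest placode sample was at 22.0 times the highest SMG sample, a difference of 3.98 on the log2 scale (SE 0.07, adjusted p = 2.22e-07). The ratio of Sox2 to Sox21 differed less, at 2.84 and 2.75 in the placodes and 3.37 and 2.53 in the SMGs, and its values overlapped between the groups. Sox14, a factor of interneurons of the spinal cord and brain, was near 0 throughout, at 0.147 and 0.221 FPKM in the placodes, and each SMG sample listed it at 0. It was not tested, because its mean FPKM over the 4 samples was below 1. Without that minimum its log2 fold change was 0.24 (adjusted p = 0.0245), at levels where all 4 values lie below an FPKM of 1.

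Sox4 was the most abundant of the 8 genes in both groups, and the SoxC genes had smaller log2 fold changes than Sox2, Sox3 and Sox21, a difference that was not tested. Sox4 reached 267 and 265 FPKM in the placodes and 73.0 and 69.2 FPKM in the SMGs. The groups did not overlap, and the mean was 3.74 times as high in the placodes (log2 fold change 1.89, SE 0.05, adjusted p = 6.69e-07). In the placodes, 0.618 and 0.606% of all features had a higher FPKM than Sox4. Sox11 reached 137 and 138 FPKM in the placodes and 27.0 and 25.6 FPKM in the SMGs. Its mean was 5.23 times as high in the placodes (log2 fold change 2.34, SE 0.05, adjusted p = 3.49e-07), the largest ratio of the 3 SoxC genes, and its groups did not overlap either.

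Sox12, the SoxC gene with the weakest transcriptional activity, differed least. It reached 59.0 and 56.9 FPKM in the placodes and 38.6 and 38.7 FPKM in the SMGs. The mean in the placodes was 1.50 times that in the SMGs, and the groups did not overlap. Its log2 fold change of 0.57 (SE 0.05, adjusted p = 7.29e-05) was close to the median absolute log2 fold change of all tested features, 0.55, and 22.8% of these features had a log2 fold change as high or higher. Differences between the samples of one group were smaller, at no more than 0.09 on the log2(FPKM + 1) scale for any of the 8 genes in the placodes and 0.25 in the SMGs, where Sox2 varied most.

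**Figure D2:**
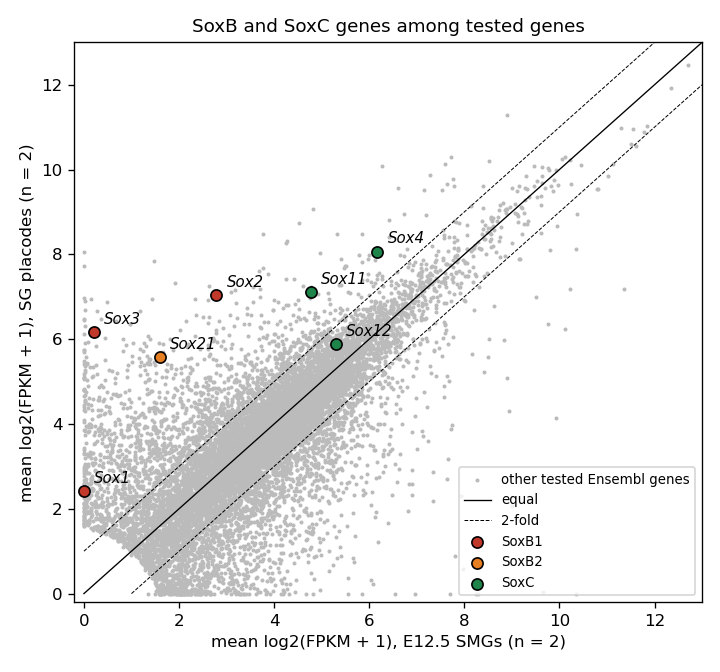
Mean log2(FPKM + 1) of each tested Ensembl gene in the E12.5 SMGs (horizontal axis) and in the SG placodes (vertical axis), with the 7 tested SoxB and SoxC genes named and coloured by subgroup. Of the 7 genes, 6 lie above the dashed line of a 2-fold difference and Sox12 lies between that line and the line of equality.

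In FPKM, which is scaled to transcript length, the genes could be ordered by level. The order in the placodes was Sox4, Sox11, Sox2, Sox3, Sox12, Sox21, Sox1 and Sox14, and the values of neighbours did not overlap between the 2 samples. In the SMGs it was Sox4, Sox12, Sox11, Sox2, Sox21 and Sox3, followed by Sox1 and Sox14, whose values overlapped at or near 0. Sox3, Sox1 and Sox14 were all below an FPKM of 0.25 in the SMGs. Sox12 thus stood below Sox11, Sox2 and Sox3 in the placodes and above all of them in the SMGs. The ratio of Sox11 to Sox12 was 2.32 and 2.43 in the placodes against 0.701 and 0.662 in the SMGs.

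The summed FPKM of the 8 genes came to 717 and 711 in the placodes and to 147 and 141 in the SMGs. SoxC genes held most of it in each sample. The SoxC sum was 2.22 and 2.26 times the SoxB1 sum in the placodes, and 20.9 and 24.0 times in the SMGs. Within SoxC, Sox4 held 57.7 and 57.5% in the placodes and 52.7 and 51.8% in the SMGs, while the share of Sox12 was 12.8 and 12.4% against 27.8 and 29.0%. These sums and shares describe the samples and were not tested.

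**Figure D3:**
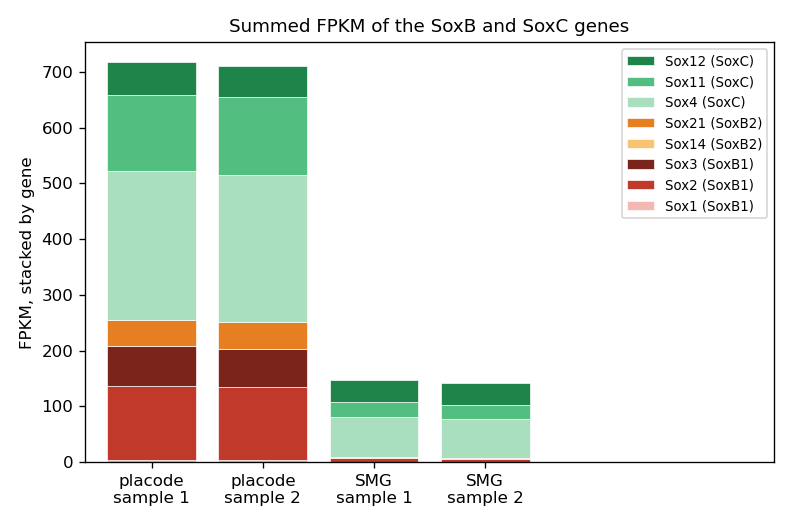
FPKM of the 8 SoxB and SoxC genes stacked by gene in each sample, on a linear axis from 0. The 3 SoxC genes (green) form the largest part of every bar, while the SoxB1 genes (red) and Sox21 (orange) are thick bands in the placodes and thin ones at the foot of the SMG bars.

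Among 19 listed Sox genes, the 8 genes accounted for 89.6 and 89.3% of all Sox FPKM in the placodes and 67.2 and 68.5% in the SMGs. Most of the remainder in the SMGs belonged to SoxE genes, at 15.7 and 14.5%, and to the endothelial SoxF genes, at 12.9 and 12.4%. Of the 11 other Sox genes, 9 were tested, with 4 higher and 5 lower in the placodes, 3 and 4 of them by at least 2-fold, so the family did not move in a single direction. Of all tested features, 40.4% were lower and 15.2% were lower by at least 2-fold. The median log2 fold change of the 9 other Sox genes was -0.61. The highest was Sox6, a SoxD gene, at 14.2 and 14.7 FPKM in the placodes and 1.49 and 1.37 in the SMGs (log2 fold change 2.67, adjusted p = 1.51e-06). The lowest was Sox18, a SoxF gene of blood vessel endothelium, at 0.561 and 0.260 against 14.3 and 12.8 (log2 fold change -3.37, adjusted p = 3.24e-06). Sox9, which marks salivary epithelial progenitors and also neural progenitors, was higher in the placodes, at 42.1 and 43.0 FPKM against 9.31 and 7.66 FPKM (log2 fold change 2.20, adjusted p = 3.66e-06). Sox10, which marks Schwann cell precursors and also salivary epithelium, fell by 2.76 on the log2 scale. The FPKM of Sox2 was 65.8 and 82.5 times that of Sox10 in the placodes, and 0.342 and 0.318 times in the SMGs.

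SoxB1 proteins bind DNA together with partner factors, so genes of 6 known partners and 6 known targets were examined. Of the partners, 5 were tested, and each rose by 2-fold or more in the placodes, as did 14.1% of all tested features. The median log2 fold change of the 5 partners was 5.09. Pou3f3, Pou3f2, Pou3f4 and Pou3f1 encode POU factors that pair with Sox2 in neural cells. Pou3f3 had the largest difference on the log2(FPKM + 1) scale, though not at a pseudocount of 0.001, where Pou3f2 exceeded it (13.8 against 10.4), as did Pax6. It reached 45.9 and 46.9 FPKM in the placodes against 0.0336 and 0.0314 FPKM in the SMGs. Pou3f2 was at 33.2 and 33.1 FPKM against 0.00450 and 0. Neither gene overlapped between the groups. Pax6, a partner of Sox2 in the eye, lay 5.34 higher in the placodes on the log2 scale (SE 0.09, adjusted p = 2.14e-07). Pou5f1, the partner of Sox2 in pluripotent cells, was at 0.403 and 0.340 FPKM in the placodes and at 0 in the SMGs, and was not tested.

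Of the 6 targets, 3 were tested and all 3 were higher in the placodes, as were 35.7% of all tested features. Nes, an intermediate filament gene of neural progenitors with an enhancer bound by Sox2, reached 56.9 and 65.4 FPKM in the placodes and 29.8 and 29.0 FPKM in the SMGs (log2 fold change 1.03, adjusted p = 3.76e-05). The difference in Sox2 was larger, so that the ratio of Sox2 to Nes was 2.31 and 1.99 in the placodes and 0.219 and 0.184 in the SMGs. Notch1, a receptor gene that holds progenitors undifferentiated, differed by 1.00 on the log2(FPKM + 1) scale, with a ratio of mean FPKM of 2.07, and Shh, which encodes a ligand that patterns the neural tube, by 1.86. The targets bound with Pou5f1 in pluripotent cells, Fgf4, Utf1 and Nanog, stayed under 1 FPKM in each sample.

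For SoxC, 6 target genes were tested, with 5 higher and 1 lower in the placodes, against 35.7 and 40.4% of all tested features. The cytoskeleton genes of young neurons had the largest differences. Map2 reached 138 and 145 FPKM in the placodes and 8.64 and 7.54 FPKM in the SMGs, 3.97 apart on the log2 scale (SE 0.07, adjusted p = 2.23e-07). The log2 fold changes of Tubb3 and Dcx were 3.14 and 2.92. Isl1, a homeobox gene of motor and sensory neurons, and Ezh2, a histone methyltransferase gene, differed by 0.44 (adjusted p = 0.0190) and 0.36 (adjusted p = 0.00169). Tead2, which encodes a nuclear effector of Hippo signalling, was lower in the placodes by 0.39 on the log2 scale, at 57.0 and 52.8 FPKM against 77.1 and 67.5 FPKM (adjusted p = 0.00388). The call of Tead2 was lost without placode sample 2 (adjusted p = 0.0716), and that of Isl1 without SMG sample 1 (adjusted p = 0.0694) or SMG sample 2 (adjusted p = 0.0533).

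SoxC transcripts were set against neuronal transcripts within each sample. The FPKM of Sox4 was 1.75 and 1.87 times that of Tubb3 in the SMGs, against 0.772 and 0.726 times in the placodes. For Sox11 this ratio was 0.649 and 0.692 against 0.396 and 0.380, and neither ratio overlapped between the groups. Against the 8 neuron markers, both SMG ratios of Sox4 and of Sox12 lay above both placode ratios for all 8, and those of Sox11 for 7. The exception was Gap43, a gene of growing axons, where the ratio of Sox11 was lower in the SMGs, at 0.657 and 0.661 against 0.881 and 0.892. The ratio of Sox4 to Gap43 differed little, at 1.78 and 1.79 against 1.72 and 1.71. These counts largely restate the log2 fold changes. That of Gap43 was the lowest of the 8 neuron markers, at 1.93, against 1.89 for Sox4 and 2.34 for Sox11. Among 6 genes of proneural factors, which act upstream of SoxC genes in neurogenesis, 5 were tested. Each of the 5 rose by 2-fold or more in the placodes, as did 14.1% of all tested features. Neurog1 stood at 0 in the SMGs against 41.5 and 45.7 FPKM in the placodes. Of 8 factors of V2 interneurons, a spinal class that includes cells with Sox14 and Sox1, 3 were tested. Gata2 was higher (log2 fold change 0.99, adjusted p = 2.19e-04), Tal1 was lower (log2 fold change -0.76, adjusted p = 9.53e-04) and Gata3 did not pass the threshold, with a log2 fold change of -0.31 (adjusted p = 0.106). Vsx1, Lhx3 and Lhx4 stood at 0 in the SMGs, and their highest placode value was 1.80, of Lhx3.

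**Figure D4:**
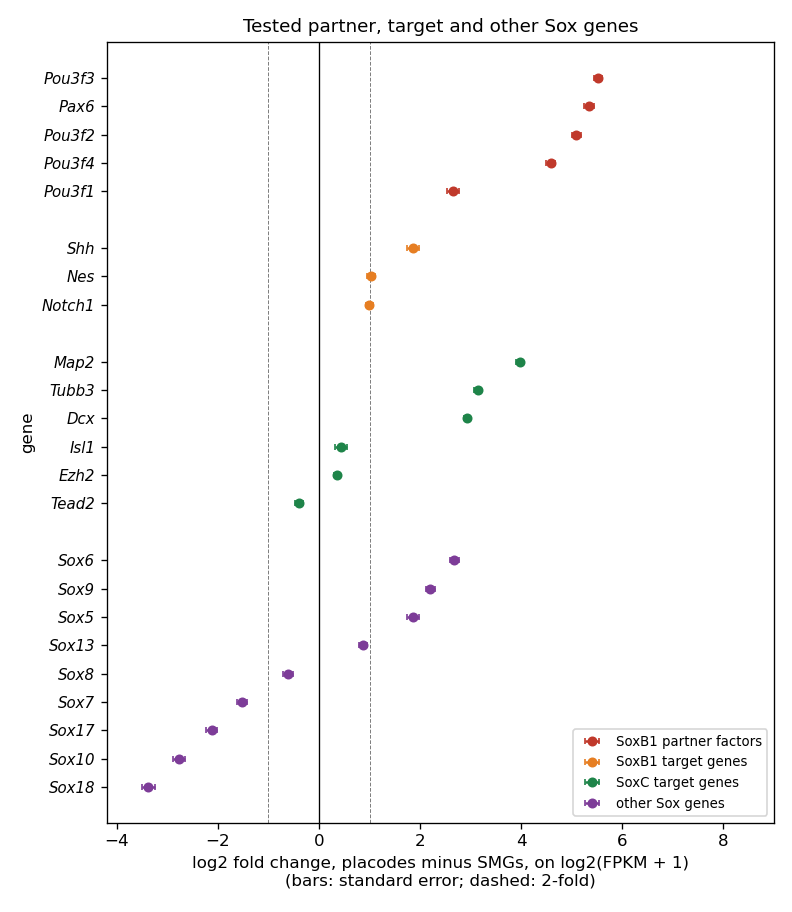
Log2 fold changes of tested partner, target and other Sox genes, placodes minus SMGs on log2(FPKM + 1), with standard errors as bars and 2-fold differences as dashed lines. All 5 SoxB1 partners lie to the right of the 2-fold line, while the other Sox genes lie on both sides of 0.

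Markers of several cell types moved with the groups, and their part in the levels of the Sox genes was not tested. Of all tested features, 35.7% were higher and 40.4% lower in the placodes at the threshold, 14.1 and 15.2% by at least 2-fold. All 8 neuron markers rose by 2-fold or more in the placodes, and their FPKM summed to 796 and 819 against 71.3 and 65.5 in the SMGs, led by Ina (log2 fold change 6.39). All 8 neural progenitor markers were higher as well, 4 of them at least 2-fold, from Hes5 (log2 fold change 6.80) to Vim (0.26). The change of Vim was below the median absolute log2 fold change of all tested features, 0.55. The sums of these 8 markers were 1091 and 1112 in the placodes and 474 and 459 in the SMGs. Of 12 markers of salivary and oral epithelium, 9 fell by 2-fold or more in the placodes, 1 was higher (Krt19) and 2 did not pass the threshold. The calls of Krt19 and Vim were lost without either placode sample (adjusted p = 0.0658 and 0.0826 for Krt19, 0.0603 and 0.0536 for Vim). Krt5, Krt14 and Krt15 were listed at 0 in both placode samples. The epithelial sums were 76.9 and 83.5 in the placodes against 678 and 640.4 in the SMGs, and Pitx1, which marks oral ectoderm, fell by 7.40 on the log2 scale. Sox9, which was higher in the placodes, did not share the direction of these 9 markers. SG placode is used here as the name of the samples.

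All 8 mesenchyme markers and all 6 endothelium markers fell by 2-fold or more in the placodes, as did 15.2% of all tested features. Mesenchyme markers summed to 212 and 208 in the placodes and to 2107 and 2053 in the SMGs, and the endothelium markers to 9.75 and 9.32 against 118 and 124. Of the 6 blood markers, 4 were tested and all 4 were lower, with sums of 0.0258 and 0.275 against 2444 and 2413, and Hbb-y and Hba-a2 were listed at 0 in both placode samples. Ganglion and Schwann precursor markers were present in both groups, with sums of 57.1 and 54.7 against 86.2 and 79.5. Of 7 tested, 1 was higher (Ret), 4 were lower and 2 did not pass the threshold. Of 8 otic and epibranchial placode markers, tissues in which Sox2 and Sox3 are also known, 4 of the 6 tested were at least 2-fold higher (Pax8 the most, by 5.42 on the log2 scale) and 2 at least 2-fold lower, and Foxi2 and Foxi3 were listed at 0 in both placode samples. Of 8 pluripotency markers, 2 were tested. Esrrb was higher, at 20.0 and 19.6 against 0.0630 and 0.0628, Klf4 was lower by 2.39 on the log2 scale, and the other 6 stayed under 1 FPKM in each sample.

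**Figure D5:**
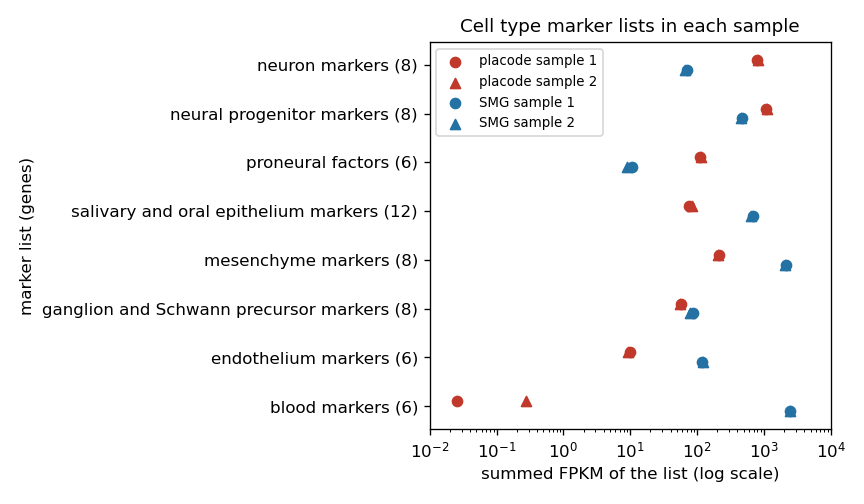
Summed FPKM of each marker list in each sample, on a log axis, with the number of genes of the list in parentheses. The placode samples lie to the right of the SMG samples for the neuron, neural progenitor and proneural lists and to the left of them for the lists of epithelium, mesenchyme, ganglion and Schwann precursors, endothelium and blood.

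The genes with the most similar values to each Sox gene were taken by Euclidean distance over the 4 samples on the log2(FPKM + 1) scale, which reflects level as well as difference. Nearest to Sox2 were Rtn1 (distance 0.13), Stmn3 and Dusp4. Rtn1 reached 138 and 137 FPKM in the placodes and 6.42 and 5.67 FPKM in the SMGs. Nearest to Sox3 were Hoxb7 (distance 0.34), Hoxc4 and Scrt2, to Sox21 were Rab6b (0.12), Igdcc3 and Spock2, and to Sox1 were Drd2 (0.08), Pappa2 and Prl8a9. Those of Sox11 were Aplp1 (0.17), Gpc2 and Map1b, and those of Sox4 were Dpysl3 (0.29), Sbk1 and Hmgcs1. For Sox12 they were Atp6v0d1 (0.06), Zcrb1 and Clip3. With 4 samples in 2 groups, closeness says only that these genes had like levels in both groups.

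In the GENCODE M21 annotation of GRCm38, 6 of the 8 genes had a single exon in every transcript, as had 6.05% of the protein-coding genes of the table, while Sox12 and Sox14 also had a transcript with 2 exons. Sox2 (ENSMUSG00000074637) lies at chr3:34650405-34652461 on the plus strand, within the locus of the noncoding gene Sox2ot on the same strand. Sox3 (ENSMUSG00000045179) lies at chrX:60891366-60893430 and Sox4 (ENSMUSG00000076431) at chr13:28948919-28953713, both on the minus strand. Sox1 overlaps the noncoding gene Sox1ot and shares 86 exonic bases with the miRNA gene Gm25239, both on the same strand. Sox4 shares 2616 exonic bases with the noncoding gene Gm26735 and Sox21 shares 713 with Gm4675, each on the opposite strand. The strandedness of the counting is not given in the sources used here. If the strand was ignored, reads from the shared bases could come from Gm26735 and Gm4675 as well as from Sox4 and Sox21. The shared bases are part of the 4795 exonic bases of Sox4 and the 3799 of Sox21. None of the 5 noncoding genes that overlap a SoxB or SoxC gene is among the listed features by its identifier.

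Of the 16 nearest protein-coding genes, 9 were tested, with 1 higher and 3 lower in the placodes, against 35.7 and 40.4% of all tested features. The neighbours of Sox2, Dnajc19 and Atp11b, differed by -0.08 and 0.01 on the log2 scale and did not pass the threshold (adjusted p = 0.587 and 0.911). They lie 569084 and 1101645 bases away. Zcchc3, 13892 bases from Sox12, was lower in the placodes, at 17.4 and 17.0 against 40.7 and 37.7 (log2 fold change -1.15, adjusted p = 9.42e-06). Cmpk2, on one side of Sox11, was the one that was higher (log2 fold change 0.99, adjusted p = 0.00142).

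Promoter sequences of RefSeq (GRCm38.p6), of 250 bases before the RefSeq gene start, were found for 7 of the 8 genes, all but Sox3. The promoters of Sox2, Sox4 and Sox11, the most abundant of the genes in the placodes, are shown because these genes were higher there together. Capitals mark the letters CCAAT on either strand, the core of a common promoter element bound by NF-Y.
Sox2: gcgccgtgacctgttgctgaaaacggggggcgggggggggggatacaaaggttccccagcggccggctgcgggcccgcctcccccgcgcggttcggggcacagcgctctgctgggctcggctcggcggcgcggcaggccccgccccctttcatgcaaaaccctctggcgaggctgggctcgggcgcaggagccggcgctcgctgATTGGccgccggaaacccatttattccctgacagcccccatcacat
Sox4: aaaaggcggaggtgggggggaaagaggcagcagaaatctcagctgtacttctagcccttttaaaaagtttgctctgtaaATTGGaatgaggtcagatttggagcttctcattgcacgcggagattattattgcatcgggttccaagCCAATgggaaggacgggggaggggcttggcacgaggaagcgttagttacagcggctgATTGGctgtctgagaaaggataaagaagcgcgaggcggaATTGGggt
Sox11: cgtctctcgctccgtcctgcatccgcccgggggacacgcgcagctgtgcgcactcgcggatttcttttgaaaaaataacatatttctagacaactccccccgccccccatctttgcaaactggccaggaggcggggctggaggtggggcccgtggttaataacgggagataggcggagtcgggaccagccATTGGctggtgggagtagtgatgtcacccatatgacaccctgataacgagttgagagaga
RefSeq and GENCODE place some of the starts differently. The windows of Sox2 and Sox11 end 410 and 144 bases before the GENCODE start, and those of Sox4, Sox12 and Sox1 reach 14, 17 and 224 bases into the GENCODE gene. The printed stretches lie at chr3:34649745-34649994 on the plus strand, and at chr13:28953700-28953949 and chr12:27342719-27342968 on the minus strand. CCAAT on either strand was found in 6 of the 7 promoters, all but that of Sox21, and in 33.8% of 32851 promoters of the same length, and the Sox4 promoter held 4 copies. GGGCGG, the core of the Sp1 site, was found in 5 of the 7 against 32.7% of all promoters. The GC content of the 7 ran from 50.8% (Sox4) to 74.4% (Sox12), and all but that of Sox4 exceeded the median of all promoters, 52.4%. Motif shares were not compared with promoters of like GC content. The octamer ATGCAAAT, which POU factors bind, was found in the promoter of Sox12 alone and in 1.60% of all promoters, and ACAAAG, a motif of the kind Sox proteins bind, in that of Sox2 alone and in 16.5%. The E box CAGCTG was found in those of Sox4 and Sox11 (13.0% of all promoters). Neither CACGTG (6.02%) nor TATAAA (12.4%) was in any of the 7. Motifs were counted on both strands, and a match describes the letters in these windows only. The ratio of observed to expected CpG lay between 0.641 and 1.01 in the 7 promoters, against a median of 0.373 over all promoters.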

How the data were processed

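Samples were grouped by their titles. The authors mapped the sequencing reads with HISAT2 and deposited FPKM values per gene. The submitters' processing notes name the builds GRCm38 and GRCh38. The HISAT2 version, the annotation, the strandedness and the FPKM program are not given in the sources used here. FPKM values are not counts and the depth is unknown, so no counting interval is given. They summed to 361963 to 384773 per sample, where 12636 to 12807 features reached 1 FPKM.

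Features with a mean of at least 1 FPKM over the 4 samples were compared as log2(FPKM + 1) in limma 3.58.1 under R 4.3.3 (lmFit, then eBayes with a trend in mean level), and two-sided p-values received the Benjamini-Hochberg adjustment across all 13193 such features. An exact permutation test of a single gene cannot go below p = 0.333 in this design. The code was tested on simulated data. The labels name no batch, and one that follows the groups cannot be told apart from them. Of 22036 Ensembl genes, 22022 were found in GENCODE M21 by identifier. Sequences were handled in Python 3.11.15.

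The members and gene lists were chosen with earlier results of these data known. Named by rule were the 8 SoxB and SoxC genes, the other Sox, partner and target genes, the genes with the highest and the lowest log2 fold change of each list, markers at 0, the 3 genes nearest in value to each member and their annotated neighbours. Gata3 was named after its values were seen. Some genes that the rule would name are not reported here. All 10 housekeeping genes passed the threshold, 5 higher and 5 lower in the placodes, against 35.7 and 40.4% of all tested features. Their log2 fold changes ran from -1.26 (Ppia) to 2.60 (Pgk1). Ppia also differed between the placode samples, at 356 and 157 FPKM.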

Additional observations from a re-analysis of the deposited data

How the results depend on the processing

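A total of 14 alternatives are reported. They were pseudocounts of 0.1 and 0.001, samples scaled to the same total, median-ratio scaling and quantile normalization. The filter on low values was dropped or raised to 5 FPKM, and eBayes was run without trend or with robust estimation. The replicate number was used as a block, and each of the 4 samples was left out in turn. A block with the replicate numbers crossed between the groups was also fitted and is not reported here. Sox2, Sox3, Sox21, Sox4, Sox11 and Sox12 kept their direction and an adjusted p below 0.05 in all 14, and so did Sox1 in the 13 that tested it, since its mean FPKM is below 5. The log2 fold change of Sox12 ranged from 0.50 to 0.64, that of Sox4 from 1.84 to 1.96 and that of Sox2 from 4.13 to 4.47. Those of Sox3 and Sox1 moved most, up to 9.02 and 10.2 at a pseudocount of 0.001, since their SMG values are close to 0. The number of tested features called ranged from 8501 to 9087 with 1 sample left out, against 10049 with all 4. In those fits the lone sample of a group is assumed to vary like the other group. With the replicate block, 10043 features were called, and no call of a SoxB or SoxC gene changed. The numbers are not stated to mark shared cultures or litters, and the deviations of same-numbered samples from their group means correlated at -0.03 across features, so the samples were not taken as paired. Of 75 genes followed, 5 lost their call in at least 1 alternative: Isl1 without either SMG sample (highest adjusted p = 0.0694), Tead2 without placode sample 2 (adjusted p = 0.0716), Krt19 (0.0658 and 0.0826) and Vim (0.0603 and 0.0536) without either placode sample, and Ppia without either SMG sample, without the filter and with robust estimation (adjusted p from 0.0573 to 0.156). No log2 fold change reversed. Depth is unknown, so for Sox1, Sox3 and Sox14 in the SMGs the smallest detectable FPKM cannot be given.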
